A study of Mus musculus with 6 samples.

Results

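Trem2, Apoe, Gpnmb, Abca1, Abcg1, Plin2, Fabp5, Lgals3, Cd9 and Lipa are 10 genes known from macrophages that take up, store, break down or export lipid. They were chosen by symbol from the 32285 genes counted in 6 single-cell RNA sequencing libraries of mouse heart cells other than cardiomyocytes, and each symbol matched 1 gene. Their UMIs (unique molecular identifiers, each marking 1 captured RNA molecule) were summed over the cells of a marker-defined cell class in each library and divided by all UMIs of those cells, which gives a level in the usual depth-scaled unit, CPM.

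The mice were males of 8 to 12 weeks, either wild type (WT, strain C57BL/6JRj) or knockout for the calcium-activated cation channel gene Trpm4 (KO, strain B6.Cg-Trpm4tm1.2-PG). The 6 groups were WT and KO 24 h after a sham operation, 24 h after tying off the LAD (the coronary artery that supplies the front wall of the left ventricle; called ligation below), which infarcts the ventricle, and 72 h after that ligation. Each group has 1 library, made from live-sorted cells pooled from 4 hearts, so no difference below has a replicate check and no test was made. Intervals are exact, cover 95%, and hold counting error only, without the spread between mice, operations and library preparations.

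After an infarct, neutrophils and then monocyte-derived macrophages enter the heart and engulf dead cells, whose membranes bring in cholesterol and fatty acids. A macrophage can hydrolyse this lipid in lysosomes, store it as ester in droplets, or hand cholesterol to apolipoproteins through ABC transporters that sterol-sensing LXR receptors induce. TREM2 is a lipid-binding surface receptor that signals through TYROBP, and macrophages with high Trem2 and Gpnmb are known from fat, atherosclerotic arteries and injured hearts.

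The monocyte/macrophage class held 7445 of 32051 kept cells, between 656 and 2086 per library, in 8 of 36 clusters. Its defining markers were present in all 6 libraries, with Lyz2 between 10374 and 13879 CPM and Csf1r between 254 and 403 CPM. Summed counts of the class ranged from 8526193 to 28811336 UMIs. Cells of the class had a median of 9767 to 12159 UMIs in 5 libraries and 3936 in KO ligation 72 h, where 29.2% of kept cells stayed in unnamed clusters, against 1.82% to 6.04% elsewhere. Pairs of libraries shared 3 to 14 cell barcodes, at most 0.206% of the smaller library. Trpm4 itself was at 8.79, 5.52 and 4.29 CPM in the WT libraries (sham, ligation 24 h, ligation 72 h) and at 6.20, 3.46 and 2.57 CPM in the KO libraries. Which part of Trpm4 is deleted is not stated in the labels, and a tag at the 3' end checks nothing if it lies outside that part.

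Of the 10 genes, 8 had an upstream sequence in the RefSeq promoter table (build GRCm38.p6); Abcg1 and Fabp5 had none. Trem2, Apoe, Gpnmb and Lipa are shown because they were higher together at 72 h in both genotypes, and Abca1 because its course differed from theirs. Each line gives the 250 bases before the transcription start, 5′ to 3′ on the gene's own strand, with capitals marking the matched motifs.
Trem2, plus strand, chr17:48346151-48346400: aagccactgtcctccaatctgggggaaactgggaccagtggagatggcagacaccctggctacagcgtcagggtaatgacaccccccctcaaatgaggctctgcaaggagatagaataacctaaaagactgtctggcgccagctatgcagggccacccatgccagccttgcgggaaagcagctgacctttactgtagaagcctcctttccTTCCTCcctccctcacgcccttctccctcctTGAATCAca
Apoe, minus strand, chr7:19699189-19699438: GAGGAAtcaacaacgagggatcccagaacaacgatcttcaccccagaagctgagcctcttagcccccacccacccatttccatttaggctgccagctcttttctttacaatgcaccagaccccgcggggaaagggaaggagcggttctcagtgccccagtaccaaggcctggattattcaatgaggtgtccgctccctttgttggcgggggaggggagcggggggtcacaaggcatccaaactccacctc
Gpnmb, plus strand, chr6:49036268-49036517: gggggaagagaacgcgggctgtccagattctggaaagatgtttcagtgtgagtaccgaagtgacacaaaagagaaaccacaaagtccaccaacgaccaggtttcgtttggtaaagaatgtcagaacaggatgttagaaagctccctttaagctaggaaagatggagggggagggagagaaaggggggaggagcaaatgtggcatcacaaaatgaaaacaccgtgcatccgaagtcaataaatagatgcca
Lipa, minus strand, chr19:34527475-34527724: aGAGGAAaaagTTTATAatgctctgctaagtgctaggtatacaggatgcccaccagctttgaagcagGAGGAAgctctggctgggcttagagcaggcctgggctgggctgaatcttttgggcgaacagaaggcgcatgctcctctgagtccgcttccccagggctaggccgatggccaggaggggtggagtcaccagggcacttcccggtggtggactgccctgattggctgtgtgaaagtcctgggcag
Abca1, minus strand, chr4:53159896-53160145: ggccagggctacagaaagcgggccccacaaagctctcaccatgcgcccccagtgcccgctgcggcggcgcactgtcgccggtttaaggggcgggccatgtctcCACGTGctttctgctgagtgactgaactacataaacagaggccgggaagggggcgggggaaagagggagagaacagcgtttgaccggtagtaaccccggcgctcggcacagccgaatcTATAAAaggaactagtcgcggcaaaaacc

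In all, 5 motifs were searched on both strands. A loose AP-1 pattern, TGANTCA with any base in the middle, was found in 1 of the 8 promoters, that of Trem2, 9 to 3 bases before the start. The Trem2 match was TGAATCA. The same loose pattern was found in 6.75% of all 32851 promoters in the table. The PU box GAGGAA, the core bound by the myeloid factor PU.1, was found in Trem2, Apoe and Lipa and in 23.3% of all promoters. The E-box CACGTG, which MITF and TFEB can bind, was found in Abca1 alone of the 8 and in 6.02% of all. TATAAA was found in Abca1 and Lipa and in 12.4% of all. The Abca1 match lay 29 to 24 bases before the start, on the gene's own strand. The Lipa match lay 239 to 234 bases before it, on the opposite strand. The strict LXR direct repeat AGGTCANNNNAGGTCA was found in none of the 8 and in 0.0152% of all. It allows no mismatch and was found in only 5 of 32851 promoters, so its absence does not show that LXR sites are lacking. No motif was shared by all 4 genes that were higher at 72 h, and the Gpnmb window held none of the motifs. GC content was 56.0%, 57.2%, 47.2%, 58.0% and 61.6% for Trem2, Apoe, Gpnmb, Lipa and Abca1, against a median of 52.4% over the table.

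Trem2 (chr17:48346401-48354147) encodes the lipid receptor. Gene positions here and below are those of build GRCm38. In monocyte/macrophage cells it was at 234 CPM in WT sham, 216 in KO sham, 138 in WT ligation 24 h, 217 in KO ligation 24 h, 692 in WT ligation 72 h and 538 in KO ligation 72 h. Both 72 h libraries stood above the other 4, and WT ligation 24 h stood below them all. From 24 h to 72 h after ligation the level was 5.001-fold higher in WT (4.72 to 5.31) and 2.48-fold higher in KO (2.38 to 2.59). KO stood 1.57-fold above WT at 24 h after ligation (1.47 to 1.67) and at 0.778 of it at 72 h (0.753 to 0.803), so the order of the genotypes was opposite at the 2 times. Counted per cell after thinning each cell to 1000 UMIs, 18.5%, 16.6%, 10.2% and 18.4% of cells in WT sham, KO sham, WT ligation 24 h and KO ligation 24 h had a Trem2 UMI, against 39.1% and 34.6% in WT and KO ligation 72 h. The unthinned shares were 65.2%, 66.7%, 58.8%, 70.0%, 82.1% and 63.5%. Thinning left out 157 of 1415 cells in KO ligation 72 h and 1 to 15 in each other library.

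Apoe (chr7:19696109-19699188) encodes the apolipoprotein that accepts exported cholesterol. Its level was 5690 CPM in WT sham, 6476 in KO sham, 3594 in WT ligation 24 h, 4423 in KO ligation 24 h, 13831 in WT ligation 72 h and 11557 in KO ligation 72 h. It was lowest 24 h after ligation and highest at 72 h in both genotypes. Against sham the 24 h level was 0.632-fold in WT (0.623 to 0.640) and 0.683-fold in KO (0.676 to 0.690), and from 24 h to 72 h it was 3.85-fold higher in WT (3.80 to 3.89) and 2.61-fold higher in KO (2.59 to 2.64).

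The lower Apoe level at 24 h was not seen inside every cluster. In the cluster led by Ccl24 and Arg1 it was 1.33-fold higher than in sham in WT (1.29 to 1.37) and 1.71-fold higher in KO (1.67 to 1.75). In the classical monocyte cluster it was 1.51-fold higher in WT (1.46 to 1.56) and 1.44-fold higher in KO (1.39 to 1.49). In resident macrophages, the cluster led by Mgl2, Lyve1 and Cbr2, it was 0.509 of sham in WT (0.496 to 0.522) and 0.546 in KO (0.536 to 0.556). Resident macrophages carried 19078 CPM of Apoe in WT sham and 21152 in KO sham, and their share of the class was 21.5% and 26.6% in those libraries but 9.91% and 7.76% in WT and KO 24 h after ligation. With resident macrophages and monocytes left out, the KO ratio of 24 h to sham turned from a log2 value of -0.55 to 0.64.

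Gpnmb (chr6:49036546-49070929) encodes a transmembrane glycoprotein of late endosomes and lysosomes. It was at 19.98 CPM in WT sham and 19.2 in KO sham, at 3.99 and 4.51 in WT and KO ligation 24 h, and at 146 and 92.0 in WT and KO ligation 72 h. The 24 h libraries were lowest and the 72 h libraries highest. The 24 h level was 0.200 of sham in WT (0.135 to 0.287) and 0.235 in KO (0.178 to 0.307), and the 72 h level was 36.7-fold (26.2 to 53.0) and 20.4-fold (16.2 to 25.9) that at 24 h. The WT ligation 24 h value rests on 34 UMIs, of which 1 cell held 67.6%, and without the top cell of each library KO stood above WT at 24 h by a log2 ratio of 1.64 in place of 0.18. Against sham, which does not depend on that cell, the 72 h level was 7.32-fold in WT (6.39 to 8.42) and 4.78-fold in KO (4.04 to 5.68).

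Gpnmb UMIs were held by few cells. After thinning, 8.45% of cells in WT ligation 72 h (7.29% to 9.73%) and 5.56% in KO ligation 72 h (4.36% to 6.98%) had one, against 1.27% and 1.24% in WT and KO sham and 1 cell each in the 24 h ligation libraries. Unthinned shares were 28.7% and 15.8% at 72 h, 5.13% and 5.55% in sham, and 1.37% and 2.29% at 24 h. In WT ligation 72 h the tenth of cells with most Gpnmb held 76.7% of its UMIs. Of cells with a Trem2 UMI in that library 12.6% also had Gpnmb, against 5.78% of cells without one, and in KO ligation 72 h the shares were 7.82% and 4.37%. Cells with both made up 4.93% of the class in WT and 2.70% in KO at 72 h and at most 0.392% in the other 4 libraries.

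Lipa (chr19:34492318-34527474) encodes the lysosomal acid lipase, which hydrolyses cholesteryl esters and triglycerides. It was at 122 CPM in WT sham, 115 in KO sham, 70.1 in WT ligation 24 h, 78.3 in KO ligation 24 h, 227 in WT ligation 72 h and 192 in KO ligation 72 h. The order of the 3 conditions was that of Apoe and Gpnmb in both genotypes. From 24 h to 72 h it was 3.24-fold higher in WT (2.98 to 3.53) and 2.45-fold higher in KO (2.28 to 2.63).

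**Figure D1:**
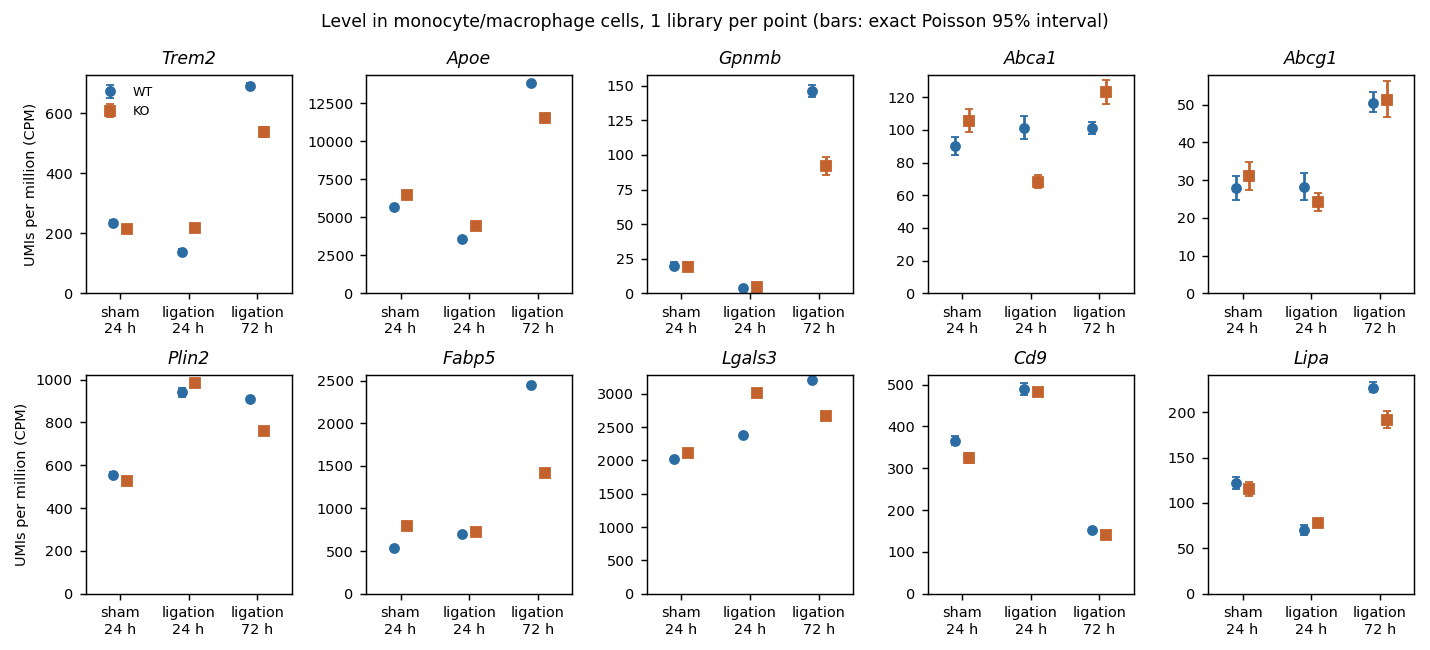
Level of each gene (CPM, vertical axis from 0) in monocyte/macrophage cells for sham 24 h, ligation 24 h and ligation 72 h (horizontal axis); circles are WT and squares KO, 1 library each, and bars are exact 95% Poisson intervals. Trem2, Apoe, Gpnmb and Lipa are highest at 72 h in both genotypes, Cd9 is lowest there, and Fabp5 reaches 2453 CPM in WT against 1417 in KO.

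Abca1 (chr4:53030787-53159895) and Abcg1 (chr17:31057675-31117988) encode the transporters that export cholesterol to apolipoproteins and to high-density lipoprotein. Abca1 was at 90.1 CPM in WT sham, 106 in KO sham, 101 in WT ligation 24 h, 68.3 in KO ligation 24 h, 101 in WT ligation 72 h and 123 in KO ligation 72 h. The 3 WT libraries lay within 90.1 to 101 CPM, while KO ligation 24 h was the lowest and KO ligation 72 h the highest of the 6. At 24 h after ligation KO was at 0.674 of WT (0.618 to 0.736). Within the cluster led by Ccl24 and Arg1 the values were 148 CPM in WT and 88.7 in KO, a ratio of 0.598 (0.540 to 0.663). The difference was not present in classical monocytes, at a ratio of 1.09 (0.725 to 1.66), or in resident macrophages, at 1.08 (0.830 to 1.42).

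Abcg1 was at 27.8, 31.0, 28.1 and 24.1 CPM in WT sham, KO sham, WT ligation 24 h and KO ligation 24 h, and at 50.6 and 51.4 CPM in WT and KO ligation 72 h. Both genotypes stood at nearly the same level at 72 h, with a ratio of 1.02 (0.912 to 1.13). From 24 h to 72 h the level was 1.80-fold higher in WT (1.57 to 2.07) and 2.13-fold higher in KO (1.86 to 2.43). Neutrophils, at 119 CPM as the median of 6 libraries, carried more Abcg1 than monocyte/macrophage cells in each library.

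Plin2 (chr4:86648386-86670060) encodes the coat protein of lipid droplets. It was at 556 and 527 CPM in WT and KO sham, 941 and 984 in WT and KO ligation 24 h, and 910 and 762 in WT and KO ligation 72 h. It was the member with the highest ratio of ligation 24 h to sham in both genotypes, 1.69-fold in WT (1.64 to 1.75) and 1.87-fold in KO (1.81 to 1.93). All 4 clusters with at least 50 cells in both KO libraries were higher at 24 h, from 1.58-fold in the cluster led by Syngr1 and Gpnmb to 2.69-fold in resident macrophages. Neutrophils also carried Plin2, at 412 and 332 CPM in WT and KO sham and at 1051 and 903 in WT and KO ligation 24 h.

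Fabp5 (chr3:10012548-10016607) encodes a fatty acid binding protein of the cytosol. It was at 533 CPM in WT sham, 789 in KO sham, 700 in WT ligation 24 h, 730 in KO ligation 24 h, 2453 in WT ligation 72 h and 1417 in KO ligation 72 h. The 72 h libraries were highest, and KO was above WT in sham but below it at 72 h. KO against WT was 1.48-fold in sham (1.43 to 1.53) and 0.578-fold at 72 h (0.567 to 0.589), the lowest of the 10 ratios at that time. Among the 5 clusters with at least 50 cells in both 72 h libraries the difference was uneven. It was 0.532-fold in the cluster led by Ccl24 and Arg1, 0.563-fold in that led by Syngr1 and Gpnmb, 0.658-fold in that led by Birc5 and Ube2c, 0.916-fold in that led by Cxcl10 and Ccl8, and 1.38-fold in classical monocytes (1.26 to 1.503). KO cells were shallower than WT cells in each of these 5 clusters. Their median UMIs ran from 7563 against 8968 in classical monocytes to 1889 against 24151 in the Birc5 and Ube2c cluster. The part of depth in these ratios was not tested. Endothelial cells had 1431 to 2378 CPM of Fabp5. The 11 endothelial markers in the monocyte/macrophage class summed to 1089 CPM in KO sham, of which Fabp4 gave 681, and to between 126 and 481 CPM in the other 5 libraries, and their part in the Fabp5 values was not tested. In WT ligation 24 h Npr3 was the 1 endothelial marker at 0. Erythroid cells had 1029 to 1651 CPM of Fabp5, and the 6 erythroid markers in the class summed to between 2.37 and 15.1 CPM in the sham and ligation 24 h libraries, where Alas2 was at 0, and to 351 and 581 CPM in WT and KO ligation 72 h. Their part in the Fabp5 values was not tested.

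Lgals3 (chr14:47367751-47386160) encodes galectin-3, a secreted lectin abundant in macrophages. It was at 2020 and 2114 CPM in WT and KO sham, 2384 and 3018 in WT and KO ligation 24 h, and 3202 and 2670 in WT and KO ligation 72 h. Its range over the 6 libraries was the narrowest of the 10 members in relative terms, and no ratio between libraries reached 2. From 24 h to 72 h it was 1.34-fold in WT (1.32 to 1.36) and 0.885-fold in KO (0.871 to 0.898), so the genotypes went opposite ways.

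Cd9 (chr6:125460266-125494791) encodes a tetraspanin of the cell surface. It was at 366 and 325 CPM in WT and KO sham, 490 and 482 in WT and KO ligation 24 h, and 151 and 140 in WT and KO ligation 72 h. It was the only member lower at 72 h than in sham, at 0.414 in WT (0.396 to 0.432) and 0.430 in KO (0.402 to 0.460). The 72 h level was below the sham level within each of the 3 clusters with enough cells for that comparison, from 0.438 to 0.582 in WT and from 0.453 to 0.650 in KO.

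Other cells also carry Cd9, and their markers differed between the libraries of the class. Neutrophils had 628 to 1555 CPM of Cd9 and platelets a median of 15054 CPM. The 9 neutrophil markers in the monocyte/macrophage class summed to 436 and 590 CPM in WT and KO sham, 2135 and 3102 in WT and KO ligation 24 h, and 177 and 801 in WT and KO ligation 72 h; Ly6g was at 0 in KO sham and WT ligation 72 h. The 5 platelet markers summed to between 2504 and 5183 CPM, and to 3576 CPM in KO sham, where Tubb1 was at 0. Their part in the Cd9 values was not tested.

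Read by comparison, the members stood apart most clearly between 24 h and 72 h after ligation. A gene is counted here as different when its CPM ratio was at least 2 or at most 0.5 and the pair of libraries held at least 50 of its UMIs. In WT, 5 of 10 members were at least 2-fold higher at 72 h (Trem2, Apoe, Gpnmb, Fabp5 and Lipa), where 12.1% of 10826 genes were, and 1 was lower (Cd9), where 7.24% were. In KO, 5 were higher (Trem2, Apoe, Gpnmb, Abcg1 and Lipa), where 8.18% of 10202 genes were, and 1 was lower (Cd9), where 3.31% were. The median log2 ratio of the members was 1.27 in WT and 1.02 in KO, against 0.04 and 0.11 over all genes. Fabp5 in KO was just under the line at 1.94-fold, and Abcg1 in WT at 1.80-fold.

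At 24 h after ligation against sham, no member was 2-fold higher in WT (2.49% of 9725 genes) or KO (1.68% of 10157 genes). Gpnmb was the 1 member 2-fold lower in WT (4.03% of genes) and in KO (7.76% of genes). The median over all genes was -0.12 in WT and -0.29 in KO on the log2 scale, and relative to that KO median Plin2 also passed 2-fold, with a log2 ratio of 1.19.

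At 72 h after ligation against sham, 4 members were higher in WT (Trem2, Apoe, Gpnmb and Fabp5; 6.25% of 10949 genes) and 2 in KO (Trem2 and Gpnmb; 3.8% of 9962 genes), while Cd9 was lower in both (5.38% and 5.56% of genes). These comparisons share their sham and 72 h libraries with others given here, so they are not separate evidence. Apoe was 2.43-fold higher in WT (2.41 to 2.45) and 1.78-fold higher in KO (1.77 to 1.80).

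Between genotypes no member reached 2-fold in any condition. In sham 0 members were higher (2.41% of 10012 genes) and 0 lower (0.31%). At 24 h after ligation 0 were higher (0.569% of 9841 genes) and 0 lower (1.27%). At 72 h after ligation 0 were higher (2.12% of 10895 genes) and 0 lower (0.716%). With counting error alone, 8 of 10 members were lower in KO at 72 h, Abca1 was higher, and Abcg1 was within counting error. Of the 8, Cd9 turned from a log2 ratio of -0.11 to above 0 under 4 other settings, at most 0.44 as a mean over cells. The median log2 ratio of the members was -0.26, against 0.01 over all genes. At 24 h 6 members were higher in KO and 1, Abca1, was lower. The median log2 ratio at 24 h was 0.11 for the members and -0.11 over all genes. The 2-fold line is therefore a matter of size, and with 1 library per genotype the genotype and the library cannot be told apart. The share of all genes beyond counting error was not computed, so the counts at 72 h and 24 h do not set the members apart.

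**Figure D2:**
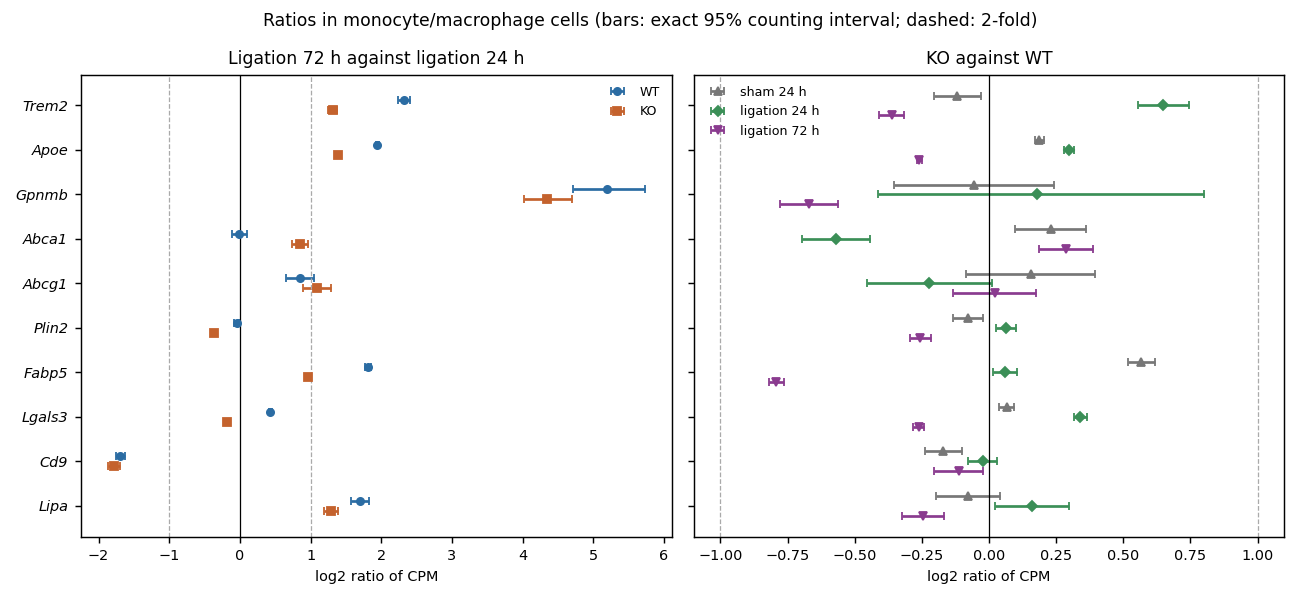
Log2 ratio of CPM in monocyte/macrophage cells (horizontal axis) for each gene (vertical axis): ligation 72 h against 24 h on the left (circles WT, squares KO), and KO against WT on the right (triangles sham 24 h, diamonds ligation 24 h, inverted triangles ligation 72 h). Bars are exact 95% counting intervals and dashed lines mark 2-fold; all points on the right lie inside those lines, while Gpnmb on the left lies at 5.20 in WT and 4.35 in KO.

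The makeup of the class differed between the libraries that were compared. The cluster led by Ccl24 and Arg1 held 42.7% and 42.9% of the class in WT and KO sham, 49.7% and 44.2% at 24 h after ligation, and 9.25% and 10.95% at 72 h. The cluster led by Syngr1, Gpnmb, Ms4a7, Fcrls and Trem2 held 10.4% and 6.29% in sham, 2.44% and 5.96% at 24 h, and 34.7% and 36.8% at 72 h. The 10 genes were left out of the clustering, but the genes most like them were not, so the place of Trem2, Gpnmb and Apoe among the leading genes of that cluster is a description. A cluster led by the interferon-induced genes Cxcl10 and Ccl8 held 26.1% of the class in WT ligation 72 h and 7.07% in KO, and a cluster led by the cycling genes Birc5 and Ube2c held 9.83% of the class in WT and 283 of 1415 cells in KO. At 24 h and in sham most of the class was therefore in other clusters than at 72 h. Cells of the Birc5 and Ube2c cluster had a median of 24151 UMIs in WT ligation 72 h and 1889 in KO. Camp was also among its leading genes.

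Levels also differed by time within clusters. In the Syngr1 and Gpnmb cluster, Trem2 was at 435 CPM in WT sham and 926 in WT ligation 72 h, and at 390 and 793 in KO, ratios of 2.13 (1.98 to 2.30) and 2.03 (1.79 to 2.31). Gpnmb in that cluster was at 74.3 and 214 CPM in WT and 54.9 and 154 in KO, and Lipa at 119 and 279 in WT and 107 and 265 in KO. The ratio of 72 h to sham within the cluster was thus at least 2 for these 3 genes in both genotypes. In the Ccl24 and Arg1 cluster, Apoe was 5.22-fold higher at 72 h than in sham in WT (5.06 to 5.38) and 2.64-fold in KO (2.52 to 2.76), and Trem2 1.73-fold and 1.59-fold. Cells of the Ccl24 and Arg1 cluster had a median of 10379.5 and 12006.5 UMIs in WT and KO sham, but 5462 and 1609 at 72 h. The part of this lower depth in those ratios was not tested. Classical monocytes differed least, with Trem2 at 172 and 199 CPM in WT sham and WT ligation 72 h. Leaving out the Syngr1 and Gpnmb cluster, an alternative chosen after its leading genes were seen, left 2 of 10 members at least 2-fold higher at 72 h than at 24 h in KO (Gpnmb and Abcg1), in place of 5. In WT the 5 members at least 2-fold higher (Trem2, Apoe, Gpnmb, Fabp5 and Lipa) stayed so.

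**Figure D3:**
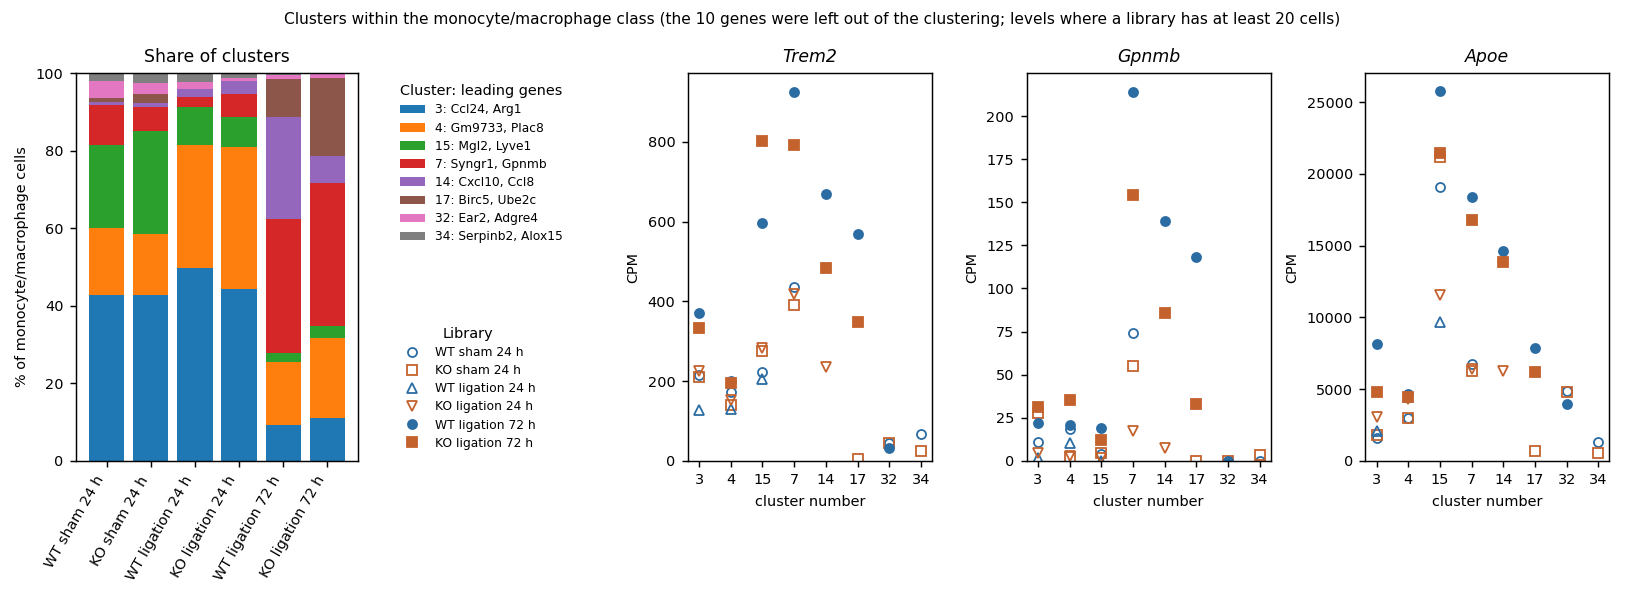
Left, percent of monocyte/macrophage cells (vertical axis) in each cluster for each library, with clusters named by 2 leading genes; right, CPM of Trem2, Gpnmb and Apoe (vertical axes) by cluster number, 1 point per library with at least 20 cells, open symbols for sham and 24 h and filled symbols for 72 h. Clusters 7, 14 and 17 hold most of the class at 72 h, and Trem2 in cluster 7 is at 926 and 793 CPM there.

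Among subclasses, resident macrophages had the most Apoe in each library. Their Gpnmb lay between 0 and 19.2 CPM, against 3.99 to 146 CPM over the whole class. In resident macrophages of WT ligation 24 h no Gpnmb UMI was found, and the exact interval reaches 4.95 CPM. Non-classical monocytes, led by Ear2 and Adgre4, had no Gpnmb UMI in any library. With 10 to 44 such cells per library, at a median of 3357.5 to 5009 UMIs, this does not show that Gpnmb is absent. Their Trem2 was at 31.0 to 45.5 CPM in the 3 libraries with at least 20 such cells. Plin2 in resident macrophages was 3.27-fold higher at 24 h after ligation than in sham in WT (2.88 to 3.72) and Cd9 4.07-fold higher (3.47 to 4.77), and in KO they were 2.69-fold and 2.89-fold higher.

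Outside the class, the 10 genes differed in how far they belonged to macrophages. Trem2 was the most restricted, with 90% to 95.1% of the UMIs in kept cells coming from monocyte/macrophage cells in 5 libraries and 69.3% in KO ligation 72 h. Lgals3 and Plin2 had 78.2% to 88.4% and 54.8% to 87.7% in the same 5 libraries. Among classes with at least 50 cells in 4 or more libraries, the median level of Trem2, Apoe, Gpnmb, Abca1, Plin2, Lgals3 and Lipa was highest in monocyte/macrophage cells. The small class of cardiomyocyte-like cells, 54 to 185 per library in the 4 libraries that had it, came next for Trem2, with levels from 0 to 281.6 CPM. Ranges overlapped between neighbours for several: Lipa spanned 70.1 to 227 CPM in monocyte/macrophage cells and 65.4 to 124 in endothelial cells, and Abca1 68.3 to 123 and, in B cells, 65.7 to 93.0. For Gpnmb, fibroblasts stood above monocyte/macrophage cells in sham and at 24 h after ligation, in both genotypes. Fibroblasts had 21.9 and 30.3 CPM of Gpnmb in WT and KO sham and 16.3 and 10.2 at 24 h. At 72 h they had 4.33 and 13.1 CPM, below monocyte/macrophage cells. Abcg1 was highest in neutrophils (69.1 to 138 CPM), Fabp5 in endothelial cells and pericytes (1602 to 2195 CPM), and Cd9 in platelets (14740 to 15614 CPM).

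In fibroblasts, Apoe was at 3660 and 4683 CPM in WT and KO sham, 2410 and 1833 at 24 h after ligation, and 817 and 2209 at 72 h. It was lower at 72 h than in sham in both genotypes, where monocyte/macrophage cells were higher. The 878 fibroblasts of KO ligation 72 h had a median of 1064.5 UMIs, against 8877 to 10809 in the other libraries, and carried 69.1 CPM of Trem2, against 0.452 to 3.03.

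**Figure D4:**
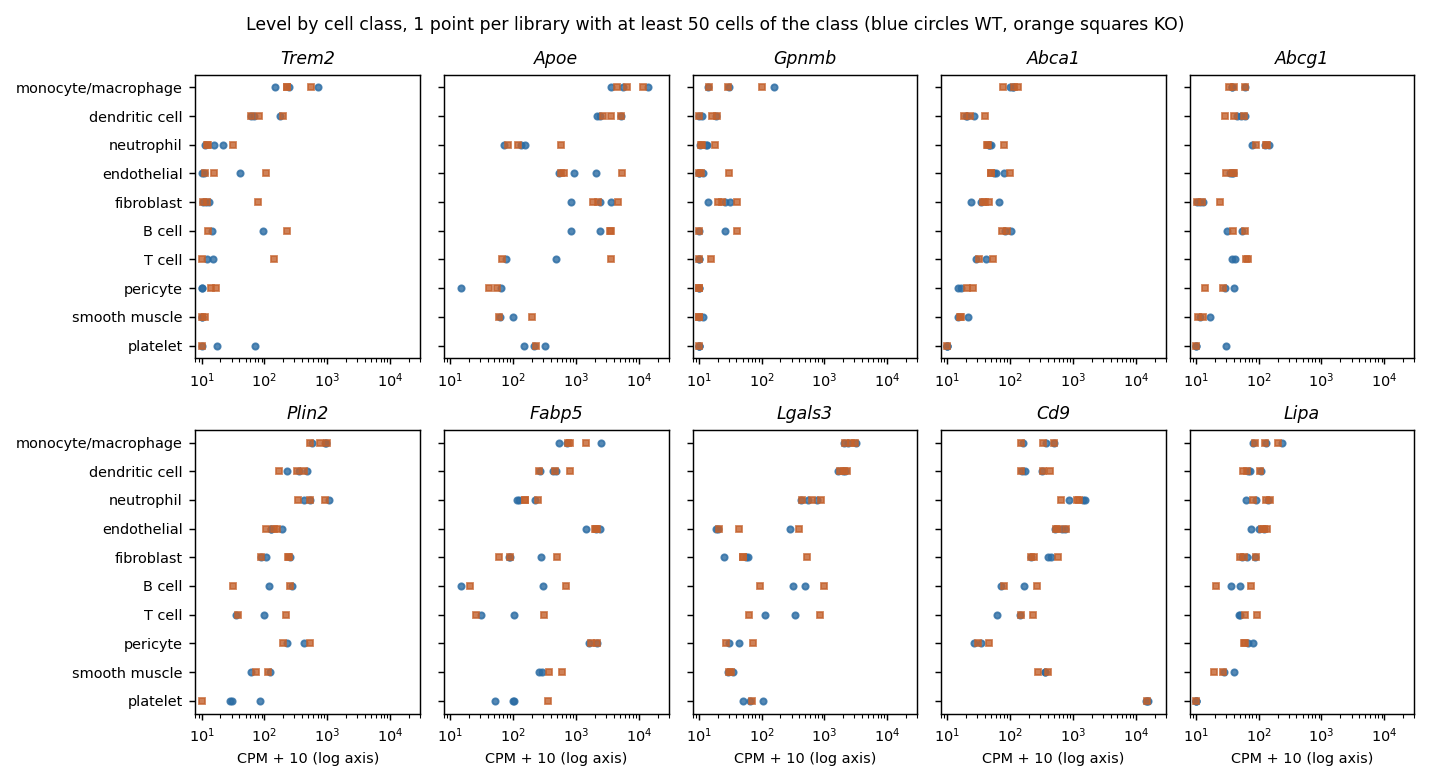
Level of each gene by cell class, 1 point per library with at least 50 cells of the class (circles WT, squares KO), as CPM plus 10 on a log axis. Trem2 is highest in monocyte/macrophage cells, Lgals3 in monocyte/macrophage and dendritic cells, and Cd9 in platelets at a median of 15054 CPM. In the Trem2 panel the KO ligation 72 h library is the highest point for endothelial cells, fibroblasts, B cells and T cells.

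T cells and B cells should lack macrophage transcripts, and in droplet data RNA free in the suspension can give them some. After thinning, Apoe was found in 68.6% of T cells in KO ligation 72 h (58.7% to 77.5%, 102 cells) and in 0% to 17.4% of T cells in the other 5 libraries. In B cells KO ligation 72 h stood less apart for Apoe, at 3556 CPM against 3487 in KO ligation 24 h. WT ligation 72 h and WT ligation 24 h had 2375 and 837 CPM of Apoe in B cells. Trem2 was found in 19.6% of T cells and 13.1% of B cells in KO ligation 72 h, and in at most 1.15% of T cells and 2.63% of B cells elsewhere. The monocyte/macrophage share for Trem2 in KO ligation 72 h, 34.6%, stood above these. Gpnmb was found in 0 of 102 T cells, with an exact upper bound of 3.55%, and in 4.04% of B cells (1.11% to 10.0%). The thinned Gpnmb share of 5.56% in monocyte/macrophage cells of KO ligation 72 h was not apart from that in B cells beyond counting error. In CPM, Gpnmb in that library was at 92.0 (85.8 to 98.5) in monocyte/macrophage cells. It was at 31.4 (15.7 to 56.2) in B cells and 5.78 (0.70 to 20.9) in T cells. T cells and B cells of that library had a median of 1224.5 and 1351 UMIs before thinning, with unthinned Trem2 shares of 19.9% and 16.6%. The part of free RNA in the KO 72 h levels was not tested.

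An unnamed cluster led by mast cell and globin genes held 1209 of its 1324 cells in KO ligation 72 h, at a median of 804 UMIs, and carried Lyz2 at 9051 CPM, Trem2 at 388, Gpnmb at 77.6 and Apoe at 9111. Counted into the class, an alternative chosen after the cluster was seen, it left all 14 ratios beyond 2-fold in the 7 comparisons between neighbouring groups beyond 2-fold.

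Other lipid genes were read from 7 lists. Of 19 measured genes for lysosomal lipid breakdown, 6 were at least 2-fold higher at 72 h than at 24 h in WT, among them Npc2, Hexa, Glb1, Gla and Pla2g15, and 2 in KO, among them Galc, with none lower and a median log2 ratio of 0.55 and 0.52. Over all genes 12.1% in WT and 8.18% in KO were higher, and the KO count of the list is near that share. Hexa, which encodes a lysosomal hydrolase, was at 275 and 288 CPM in sham and 539 and 396 at 72 h. Lamp2 and Gm2a, the lowest of this list in WT among genes at 100 CPM or more, had log2 ratios of 72 h to sham of -0.07 and -0.20 in WT.

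Of 13 efflux and LXR genes, 4 were higher at 72 h than at 24 h in WT (Nr1h3, Mylip, Pltp and Nceh1) and 3 in KO (Mylip, Pltp and Nceh1), with none lower, against 12.1% and 8.18% of all genes. Nr1h3 encodes LXR alpha and Mylip is a known LXR target. Nceh1, a cholesteryl ester hydrolase, was at 60.1 and 60.3 CPM in WT and KO sham, 33.0 and 34.8 at 24 h and 112 and 103 at 72 h, the same order as Lipa. Apoc2, an apolipoprotein that activates lipoprotein lipase, was at 286 and 223 CPM in sham and 468 and 509 at 72 h.

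Several uptake genes were lower at 72 h. Of 10 measured uptake and scavenger receptor genes, 4 were at least 2-fold lower at 72 h than in sham in WT, among them Cd36, Olr1 and Lpl, and 3 in KO, among them Cd36 and Olr1, with none higher. Over all genes 5.38% in WT and 5.56% in KO were lower. Cd36, a fatty acid and oxidised lipoprotein receptor, was at 171 and 219 CPM in sham and 78.5 and 76.8 at 72 h; it is also an endothelial marker. Lpl, the lipoprotein lipase, was at 414 and 300 CPM in sham and 178 and 155 at 72 h, while the scavenger receptor gene Stab1 was at 244 and 298 in sham and 380 and 298 at 72 h.

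Of 15 droplet and fatty acid binding genes, 3 were higher at 24 h than in sham in WT (Hilpda, Dgat2 and G0s2) and 2 in KO (Hilpda and G0s2), against 2.49% and 1.68% of all genes, and 3 were lower in each, against 4.03% and 7.76%. G0s2 is among the leading genes of 1 neutrophil cluster, and the neutrophil markers in the class were also higher in ligation 24 h than in sham, as given above; their part in these counts was not tested. Fabp4, another fatty acid binding protein and an endothelial marker, was at 192 CPM in WT sham, 681 in KO sham, 87.0 and 24.7 at 24 h, and 186 and 268 at 72 h. Of 11 oxidation and PPAR genes, Pparg and Angptl4 were higher at 72 h than at 24 h in both genotypes. Of 13 sterol synthesis genes none was 2-fold higher in any comparison, and Sqle and Mvd were among those 2-fold lower in KO at 72 h than at 24 h and than in sham.

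Of 17 measured genes known from lipid-associated macrophages, 7 were higher at 72 h than at 24 h in WT (Cd63, Ctsd, Ctsb, Cst7, Fabp4, Cd68 and Syngr1), and of 16 in KO, 3 were (Ctsb, Fabp4 and Syngr1), against 12.1% and 8.18% of all genes. Csf1 was lower in WT, and Spp1 and Ctsl were lower in KO, against 7.24% and 3.31% of all genes. Spp1, which encodes the secreted protein osteopontin, was at 4821 CPM in WT ligation 24 h and 5459 in WT ligation 72 h, and at 7755 and 3446 CPM in KO, where the ratio was 0.444 (0.439 to 0.450). Syngr1, a synaptogyrin, was at 10.9 and 9.33 CPM in sham, 1.64 and 4.24 at 24 h and 138 and 79.5 at 72 h, the order of Gpnmb. Cd63, a lysosomal tetraspanin, was at 237 and 294 CPM in sham and 627 and 385 at 72 h, where Cd9, also a tetraspanin, was lower. Among genes of the list at 100 CPM or more, Anxa2 had the lowest ratio of WT ligation 72 h to WT sham after Lpl, and was at 976 and 1136 CPM in sham and 822 and 912 at 72 h.

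Over 61 profiles of a cell class in a library, the gene most like Trem2 in log2(CPM + 10) was Ms4a7 (Pearson r of 0.98), followed by C1qb and C1qa (both 0.93). Lgals3 was most like Cd68 (0.97), Csf1r (0.95) and Cfp (0.95), and Lipa most like Ifnar2 (0.87). Gpnmb was most like Ccl8 (0.76) and Apoe most like Rab3il1 (0.85). Among 25 profiles of a macrophage or monocyte cluster in a library, Trem2 went with Gpnmb (0.85), Lipa (0.85) and Fabp5 (0.72), and Cd9 had negative values with Abcg1 (-0.65), Apoe (-0.49) and Gpnmb (-0.47). Profiles share libraries and their depth, so these values describe the 6 libraries and carry no p.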

How the data were processed

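The authors deposited whole UMI counts per gene and cell for each library. Cell Ranger 6.0.0 made them, per the file headers, and the build was mm10, per the submitters' processing notes; the annotation is not given in the sources used here. Every deposited cell had at least 500 UMIs. Of 34940 cells, those with fewer than 200 genes or more than 20% mitochondrial UMIs were removed. The automatic Scrublet threshold (scanpy 1.11.5) marked 0 to 52 cells per library, so the highest scores were removed at 0.8% per 1000 cells. Clustering used 2000 variable genes without the 10 members, 30 components, 20 neighbours and Leiden resolution 1, with no correction between libraries.

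Clusters were named from listed markers. The score that ranks classes was changed 3 times after clusters were seen, and the rule for subclasses was also settled then. A cluster's class is the one whose markers were highest after scaling each from 0 to 1 across clusters, with at least 3 at 10 CPM. Shares depend on these names. Members and lists were chosen with earlier results of these data known. Named list genes are the 2 highest and 2 lowest ratios of WT 72 h to WT sham with at least 50 UMIs and 100 CPM. A gene counted as measured with at least 50 UMIs over the pair. Ratios have exact conditional intervals, shares Clopper-Pearson intervals; a count of 0 was set to 3. No test was made, since each group has 1 library. Scripts were tested on simulated data. Some genes of the lists are not reported here by name.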

Additional observations from a re-analysis of the deposited data

Results flagged for a closer look

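The genotypes moved in opposite directions beyond counting error for several members in monocyte/macrophage cells. With 1 library per group these differences were not tested. From sham to 24 h after ligation, the log2 ratio of Abca1 was 0.17 in WT and -0.63 in KO, and that of Fabp5 was 0.39 in WT and -0.11 in KO. For Lgals3 the log2 ratio of ligation 72 h to ligation 24 h was 0.43 in WT and -0.18 in KO.

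The ratio of KO to WT also lay on opposite sides of 1 in 2 conditions, with both counting intervals leaving 1 out, for 7 members. The share of all genes that did so was not computed, so this count does not set the members apart. For Trem2 the log2 ratio was -0.12 in sham, 0.65 in ligation 24 h and -0.36 in ligation 72 h. For Abca1 it was 0.23 in sham, -0.57 at 24 h and 0.29 at 72 h, opposite to Trem2 at each. For Plin2 it was -0.08, 0.06 and -0.26. Apoe, Fabp5 and Lgals3 were above 0 in the sham libraries (0.19, 0.57 and 0.07) and in ligation 24 h (0.30, 0.06 and 0.34) and below 0 at 72 h (-0.26, -0.79 and -0.26). Lipa was at 0.16 at 24 h and -0.25 at 72 h. The KO 72 h library was the shallowest per cell and had the most Trem2 RNA in T cells and B cells, and the part of this in the 72 h values was not tested. Some of these signs depend on the processing: as a mean over cells, Abca1 from sham to 24 h in WT was -0.05 and Fabp5 in KO was 0.02, and Fabp5 in KO was 0.17 relative to the median gene. In sham, KO against WT was -0.33 for Apoe without resident macrophages and monocytes, and 0.03 for Trem2 and 0.01 for Plin2 without the cluster led by Syngr1 and Gpnmb.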

How the results depend on the processing

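No ratio beyond 2-fold changed direction under any of 10 planned settings or the 2 chosen after seeing the data. All 14 such ratios stayed beyond 2-fold under 9 of the 12; no doublet removal kept 13, scaling to the median gene kept 13 and leaving out the Syngr1 and Gpnmb cluster kept 11. Counts of members past 2-fold moved by over 1.5 times in 5 cases. Relative to the median gene, 1 member (Plin2) was higher in KO at 24 h than in sham, in place of 0. At 24 h, 1 member (Gpnmb) was higher in KO than WT both without resident macrophages and monocytes and without the top cell of each gene, in place of 0. Without the Syngr1 and Gpnmb cluster, 2 members were higher in KO at 72 h than at 24 h, in place of 5, and 1 (Gpnmb) was lower in KO than WT at 72 h, in place of 0. Smaller moves past 2-fold were of Abcg1 (KO, 72 h against 24 h, log2 1.09 to 0.98 both without doublet removal and relative to the median gene; WT, 0.85 to 1.02 without resident macrophages and monocytes) and Fabp5 (KO, 0.96 to 1.02 without doublet removal and 1.01 in cells with at least 3000 UMIs). Of 70 ratios, all within 2-fold where they did so, 7 changed sign as a mean over cells, 8 without the Syngr1 and Gpnmb cluster, 6 without resident macrophages and monocytes, and 0 to 3 under the other settings. Thinning to 500 UMIs gave lower shares for all members and libraries except Gpnmb in KO ligation 24 h (0.0693% to 0.347%). No paired analysis was possible because the groups compared share only 1 replicate number, with 1 library each. Depth limits Gpnmb most: its 24 h values rest on 34 and 82 UMIs.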
